A study of Mus musculus with 2 samples.

Results

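The heat shock genes of the cytosol and of the mitochondrion were followed across the cell types of the mouse neurohypophysis (NH), the posterior lobe of the pituitary. The 10 genes, of 27998 in the count matrices, were chosen by symbol and cover inducible and constitutive chaperones outside the endoplasmic reticulum. They were *Hspa1a*, *Hspa1b*, *Dnajb1*, *Hsph1* and *Hspb1*, treated here as the inducible members, *Hspa8*, *Hsp90aa1* and *Hsp90ab1* as the cytosolic constitutive members, and *Hspd1* and *Hspe1* as the mitochondrial members. All 10 were present in the deposited table of cluster means and all 10 passed the filter on low counts. The tissue came from untreated male C57BL/6 mice of 3 months of age, dissected and pooled from 5 mice per pool, and the cells of 2 pools were dissociated, captured and made into libraries separately, then sequenced together. No treatment was compared, so the comparisons are between the cell types, with the 2 pools as replicates. Each pool was dissociated enzymatically with Liberase TM and papain before capture. As no undigested tissue was analysed here, levels set in the animal and levels set during digestion cannot be told apart.

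Heat shock proteins are molecular chaperones, which bind unfolded or newly made proteins and help them to fold, to be held soluble or to be degraded. The HSP70 proteins bind short exposed stretches of a client, J-domain proteins of the HSP40 family bring clients to HSP70 and trigger its ATPase, HSP110 proteins exchange its nucleotide, and HSP90 takes over clients such as kinases and steroid receptors. Small heat shock proteins hold unfolding proteins without using ATP, and in mitochondria the HSP60 ring and its HSP10 lid enclose proteins to fold them. When proteins unfold, heat shock factor 1 forms trimers and binds heat shock elements, inverted repeats of the letters GAA, in the promoters of the inducible genes, whose mRNAs are short-lived and can accumulate within minutes.

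The promoter sequences of the members are shown for these repeats, since several members were higher in the same cell type. Promoter windows of 250 bases before to 50 bases after the start were taken from RefSeq (GRCm38.p6), and 7 of the 10 members matched with 10 windows. The windows of *Hspa8*, *Hsp90aa1* and *Hsp90ab1* were not used here. Each window was searched for 2 adjoining repeats, written GAANNTTC or TTCNNGAA, which read the same on both strands and can overlap each other. Of 32851 mouse promoter windows, 15.1% held such a pair. The windows of *Hspa1a*, *Hspa1b*, *Hspb1* and *Hspe1*, both windows of *Hsph1* and 1 of the 2 of *Hspd1* held at least 1 pair. The other *Hspd1* window and both *Dnajb1* windows held none, which says only that these letters are not there. RefSeq lists more than 1 start for *Hspd1*, *Hsph1* and *Dnajb1*, and positions are counted from the start of the window used. By the GENCODE gene positions given further below, the printed pairs of *Hspd1* and *Hsph1* lie inside the gene. In the stretches below, 1 per gene, capitals mark the pairs that lie before the RefSeq start, printed 5′ to 3′ on the strand of the gene.
Hspa1a, chr17:34972233-34972280, minus strand: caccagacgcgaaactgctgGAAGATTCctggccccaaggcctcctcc
Hspa1b, chr17:34959315-34959362, minus strand: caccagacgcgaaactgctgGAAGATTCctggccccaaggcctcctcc
Hspb1, chr5:135887782-135887849, plus strand: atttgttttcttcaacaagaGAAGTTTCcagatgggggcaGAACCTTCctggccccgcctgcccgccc
Hsph1, chr5:149636342-149636389, minus strand: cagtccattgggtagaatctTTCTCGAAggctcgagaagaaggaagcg
Hspe1, chr1:55088039-55088096, plus strand: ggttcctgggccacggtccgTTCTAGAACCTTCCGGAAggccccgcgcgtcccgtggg
Hspd1, chr1:55088039-55088096, minus strand: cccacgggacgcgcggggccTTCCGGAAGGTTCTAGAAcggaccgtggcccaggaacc
The *Hspa1a* and *Hspa1b* stretches were identical, and their whole windows shared 296 of 300 bases. *Hspe1* and *Hspd1* lie head to head, so both printed stretches are the same bases read on opposite strands. There 3 overlapping pairs form 2 runs of 3 repeats in turn, each 2 letters apart. A run of 3 was found in 0.603% of all windows and 2 or more in 0.0335%. Both *Hsph1* windows also held 3 pairs and 1 run of 3. Their pair before the start is shown, and the run lies after the start. In the *Hspd1* window that held pairs, the first pair began 144 bases before the RefSeq start of that window. In the *Hspe1* window the first pair began 89 bases before the start, in *Hspb1* 117 bases, and in *Hspa1a* and *Hspa1b* 104 bases.

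The values are counts of unique molecular identifiers (UMIs), each marking 1 captured mRNA molecule, and levels are given as counts per 1000000 UMIs (CPM). Once the study's cell filters were applied, 273 cells of pool 1 with 699676 UMIs and 255 cells of pool 2 with 726706 UMIs were kept, with no cell barcode in both. The authors' own cell types were used, recovered from the deposited means, where each of the 528 cells fell into 1 of 11 clusters and the clusters into 7 types. In pools 1 and 2 there were 108 and 88 pituicytes (the astroglia of the NH), 80 and 68 cells of the intermediate lobe (IL), 41 and 54 macrophages/microglia, and 26 and 16 T cell-like cells. There were also 7 and 16 epithelial-like cells, 6 and 7 vascular endothelial cells, and 5 and 6 vascular and leptomeningeal cells (VLMCs). The deposited table names the IL clusters neural progenitors and the VLMC cluster OPC/LVMC. All 7 IL markers, such as *Pomc*, were found in the IL cells at a summed 126863 and 96790.1 CPM. The VLMC sums also held all 6 oligodendrocyte markers, at 19197 and 18016 CPM against at most 103.5 CPM in any other sum, and the epithelial-like sums held hormone genes of the anterior lobe at 35358 CPM in pool 1 and 2758 CPM in pool 2. The IL of pool 2 held these hormone genes too, at 9369 CPM against 188 CPM in pool 1. The part of these other cells in the results for the 3 types was not tested. The authors clustered on variable genes that may include members: in a clustering of the same kind, 4 members (*Hspa1a*, *Hspa1b*, *Dnajb1* and *Hspb1*) were among the 900 most variable genes.

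Each cell type was compared with the mean of the other 6 types. This asked in which cells of the NH each heat shock gene stood out. The mean was taken over fitted log levels. A type with few or no UMIs of a gene therefore lowers the mean and raises the fold changes of the other types. The cells of a type in a pool were added up to 14 sums, which held 8491 to 281271 UMIs. They were tested with edgeR's quasi-likelihood test over 4510 genes, and a gene was called where its p, adjusted by the Benjamini-Hochberg method, was at most 0.05. Of the 70 pairs of a member and a type, 18 were called higher and 5 lower, where 12.4% of all tests over all genes were called higher and 1.63% lower. The IL cells held more of the higher calls than any other type, 7 of the 18. With library sizes alone the epithelial-like cells held more, 4 against 3, and without the pool 1 sum of the type tested the IL, epithelial-like cells and vascular endothelia had 2 each. In the IL, 7 of the 10 members were called higher and none lower, against 21.5% of all genes called higher and 2.79% lower, and the median log2 fold change of the members was 1.44 against 0.55 over all genes. A log2 value of 1 is a 2-fold difference. The median over all genes lay above 0 in 4 of the 7 types, so each fold change is to be read against it: beyond the IL median, *Dnajb1* stood 2.01 higher and *Hsph1* 1.91, but *Hspe1* 0.34 and *Hsp90ab1* 0.26. The IL count depended on the setting. It was 3 of 10 (11.4% of all genes) when the sums were scaled by library size alone, 4 (9.22%) with DESeq2, 4 (18.2%) without the vascular endothelia and VLMCs, 4 (19.4%) with types rebuilt without chaperone and immediate early genes, and 2 (11.6%) and 5 (12.2%) without the IL sum of pool 1 or of pool 2. In the epithelial-like cells 3 members were called higher (8.4% of all genes), in macrophages/microglia 3 (19.5%), in pituicytes 2 (19.6%), in vascular endothelia 2 (3.66%), in T cell-like cells 1 (11.3%) and in VLMCs none (2.88%). Lower calls of members were 2 in vascular endothelia (0.599% of all genes), 2 in VLMCs (2.2%) and 1 in T cell-like cells (2.88%). No member was called lower in epithelial-like cells (0.177%), macrophages/microglia (1.29%) or pituicytes (1.49%). Each SE given here is the absolute log2 fold change divided by the square root of the F statistic of the test. For some pairs with few UMIs the test could not decide. The SE was 97210 for *Hspb1* in macrophages/microglia, where the T cell-like cells in the mean held no UMI of it. It was 61.06 for *Hspa1a* in T cell-like cells, where the VLMCs in the mean held none. A missing call in these pairs therefore says nothing. In pituicytes 2 members were lower without the vascular endothelia and VLMCs, 3 with the rebuilt types and 1, *Hspa8*, with the 4 largest types only. In T cell-like cells 2 were lower in each of these settings. With the 4 largest types *Hspa1a* was at -2.67 there (edgeR adjusted p = 0.000151). Lower calls over all genes and types rose as well, from 515 of 31570 tests in the main fit. They were 1139 of 28445, 1422 of 28645 and 1432 of 29412 tests in these settings. In macrophages/microglia 1 member was lower with DESeq2, where 489 of 31570 tests over all genes and types were. The share of all genes called lower in a single type was not worked out outside the main fit. These counts of lower members therefore have no such background to be read against. For pituicytes, the members' median in the main fit, 0.48, stood beside 0.56 over all genes. The count of members called higher in that fit was near the background in pituicytes and in the T cell-like cells.

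**Figure D1:**
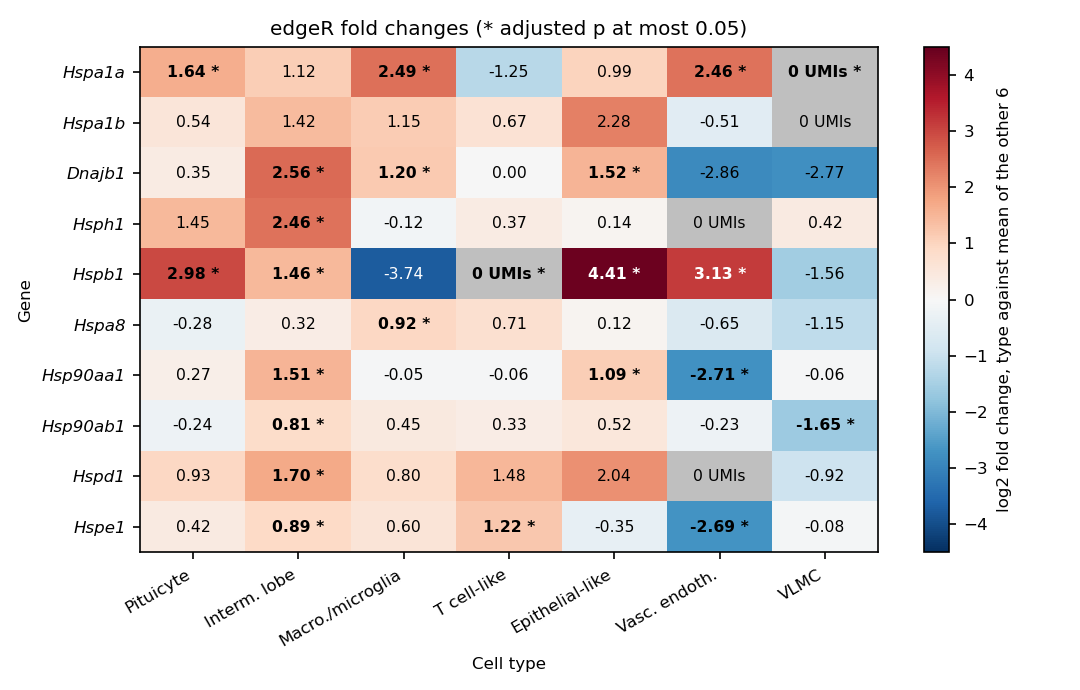
Log2 fold change of each heat shock gene (rows) in each cell type (columns) against the mean of the other 6 types, from edgeR, in color, with an asterisk where the adjusted p was at most 0.05. Grey cells are pairs with 0 UMIs in both pools, whose fitted fold change has no fixed size. In a row with a grey cell, the size of the other values depends on it too, since it enters their mean. The IL column holds 7 called genes, from 0.81 for *Hsp90ab1* to 2.56 for *Dnajb1*.

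*Hspa1a*, which encodes an inducible HSP70 (ENSMUSG00000091971, chr17:34969190-34972156 on the minus strand of GRCm38), was highest in vascular endothelia, with 264 CPM in pool 1 and 1281 CPM in pool 2. It followed at 699 and 120.5 CPM in macrophages/microglia, 414 and 152 CPM in epithelial-like cells, 373 and 169.6 CPM in pituicytes, and 174 and 192 CPM in the IL. The pools of these 5 types overlapped with those of the next type in the order, whereas T cell-like cells, at 72.8 and 0 CPM, lay below the IL in both pools. In VLMCs no UMI of *Hspa1a* was found in either pool. Against the mean of the other types *Hspa1a* was higher in macrophages/microglia by 2.49 on the log2 scale (SE 0.47, edgeR adjusted p = 1.39e-06) and in pituicytes by 1.64 (SE 0.51, edgeR adjusted p = 0.0101). In vascular endothelia it was higher by 2.46 (SE 0.64, edgeR adjusted p = 0.00524), and in VLMCs it was called lower (edgeR adjusted p = 0.00698), where its mean in macrophages/microglia was at least 3.22-fold higher than the limit of 3 counts over both VLMC sums (127 CPM). In pool 2 alone no bound holds, since macrophages/microglia were then at 120.5 CPM. These calls leaned on single pools. Without the pool 1 sum of the type tested, the log2 fold change was 0.91 in macrophages/microglia and 0.91 in pituicytes, neither of them called, and without the pool 2 sum it was 0.60 in vascular endothelia, also not called. Without vascular endothelia and VLMCs the pituicyte value was 0.70, not called, and that of macrophages/microglia 1.61, still called. In VLMCs the call was lost without either sum, at fitted values of -7.49 in both cases.

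The second inducible HSP70 gene, *Hspa1b* (ENSMUSG00000090877, chr17:34956436-34959238, minus strand), was counted at 259 and 118 CPM in epithelial-like cells, 96.0 and 40.1 CPM in the IL, 78.9 and 37.1 CPM in macrophages/microglia, 55.2 and 35.5 CPM in pituicytes, 54.6 and 34.4 CPM in T cell-like cells, and 0 and 80.1 CPM in vascular endothelia. It was called in no cell type. The mRNAs of these 2 genes are alike over part of their length. Of the 58-base stretches of the *Hspa1a* transcript, 58.3% also occurred in the transcript of another gene, and 60.2% for *Hspa1b*. None of those in the last 500 bases did, where the reads of this assay mostly lie. How many reads of the pair were left uncounted as ambiguous is not known, so the split between the genes is uncertain.

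*Dnajb1* (ENSMUSG00000005483, chr8:83608193-83612653, plus strand), the HSP40 partner of inducible HSP70, was the member that set the IL apart most clearly. It was counted at 782 CPM in pool 1 and 321 CPM in pool 2 of the IL, against 259 and 474 CPM in epithelial-like cells, 282 and 195 CPM in macrophages/microglia, 208 and 122 CPM in pituicytes, and 127 and 138 CPM in T cell-like cells. Vascular endothelia had 0 and 80.1 CPM and VLMCs 0 and 66.2 CPM, each from a single UMI. Both IL pools lay above both pools of every type but the epithelial-like cells. *Dnajb1* was higher in the IL by 2.56 on the log2 scale (SE 0.33, edgeR adjusted p = 3.24e-13), a call kept in all 14 alternative settings, between 1.53 and 3.14. At least 1 UMI was found in 65.0% (53.5% to 75.3%, exact binomial interval) of the IL cells of pool 1 and 36.8% (25.4% to 49.3%) of those of pool 2, or in 39.1% and 16.9% after each cell was thinned to 1000 UMIs. In T cell-like cells of the same pools the thinned shares were 9.07% and 9.47%. *Dnajb1* was also called higher in epithelial-like cells by 1.52 (SE 0.47, edgeR adjusted p = 0.0174), where 4 of the 16 cells of pool 2 held its 28 UMIs and 1 cell held 15 of them, and in macrophages/microglia by 1.195 (SE 0.44, edgeR adjusted p = 0.0324). Without the pool 2 sum the epithelial-like value was 0.59, and it was no longer called. In macrophages/microglia the call was lost without either pool, at 1.05 without pool 1 and 1.46 without pool 2, and in 10 of 14 settings in all. Without vascular endothelia and VLMCs, the types with fewest *Dnajb1* UMIs, the value was 0.08 in macrophages/microglia and 0.42 in epithelial-like cells, neither of them called.

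*Hsph1* (ENSMUSG00000029657, chr5:149614287-149636376, minus strand), an HSP110 protein that exchanges the nucleotide of HSP70, was among the scarcest members, at 103 and 52.1 CPM in the IL and 50.9 and 43.4 CPM in pituicytes. Both IL sums lay above both pituicyte sums. It was found with 1 or 2 UMIs per pool, or none, in T cell-like, epithelial-like, VLMC and macrophage/microglia sums, and with none in vascular endothelia. *Hsph1* was higher in the IL by 2.46 on the log2 scale (SE 0.67, edgeR adjusted p = 0.00209), and by 1.84, no longer called, without the pool 1 sum.

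*Hspb1* (ENSMUSG00000004951, chr5:135887919-135889563, plus strand), which encodes the small heat shock protein HSP25, divided the cell types most sharply. It was counted at 1501 CPM in pool 1 and 914 CPM in pool 2 of the epithelial-like cells, 353 and 1121 CPM in vascular endothelia, 365 and 410.3 CPM in pituicytes, and 110.2 and 176 CPM in the IL. Pituicytes lay above the IL in both pools, and the neighbours above them overlapped. In the immune cells it was all but missing, with 1 UMI among 95 macrophages/microglia and 0 among 84016 UMIs of 42 T cell-like cells. At the limit of 3 counts over both T cell-like sums, its mean was at least 33.8-fold higher in epithelial-like cells and at least 10.9-fold higher in pituicytes. *Hspb1* was higher in epithelial-like cells by 4.41 on the log2 scale (SE 0.44, edgeR adjusted p = 2.33e-21) and in pituicytes by 2.98 (SE 0.44, edgeR adjusted p = 4.26e-10). Both calls were kept in every alternative setting, from 3.84 to 5.15 over 13 settings and from 2.72 to 5.36 over 14. With the rebuilt types, however, the epithelial-like group held 42 cells against 23, so it also held cells of other types. No vascular endothelial or VLMC group was left in that setting. In vascular endothelia *Hspb1* was higher by 3.13 (SE 0.65, edgeR adjusted p = 8.99e-05), with 1.78 and no call without the pool 2 sum. In the IL it was higher by 1.46 (SE 0.56, edgeR adjusted p = 0.0389), with 1.17 and no call without the pool 2 sum. The IL level lay below those of epithelial-like cells, vascular endothelia and pituicytes in both pools. This call is against a log mean that includes the types with few or no UMIs. In T cell-like cells *Hspb1* was called lower (edgeR adjusted p = 0.0041), a call lost without either pool, at fitted values of -6.67 and -6.69. In pituicytes, 36.1% (27.1% to 45.9%) of the cells of pool 1 and 37.5% (27.4% to 48.5%) of those of pool 2 held a UMI, or 21.4% and 21.8% after thinning. No UMI was found in any of the 42 T cell-like cells of the same libraries (exact binomial interval up to 8.41%), where the median UMI count was 1566 and 1621.5. Of the 58-base stretches of the transcript, 50.3% also occurred in another gene, the pseudogene *Hsp25-ps1*, but 13.8% in the last 500 bases.

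**Figure D2:**
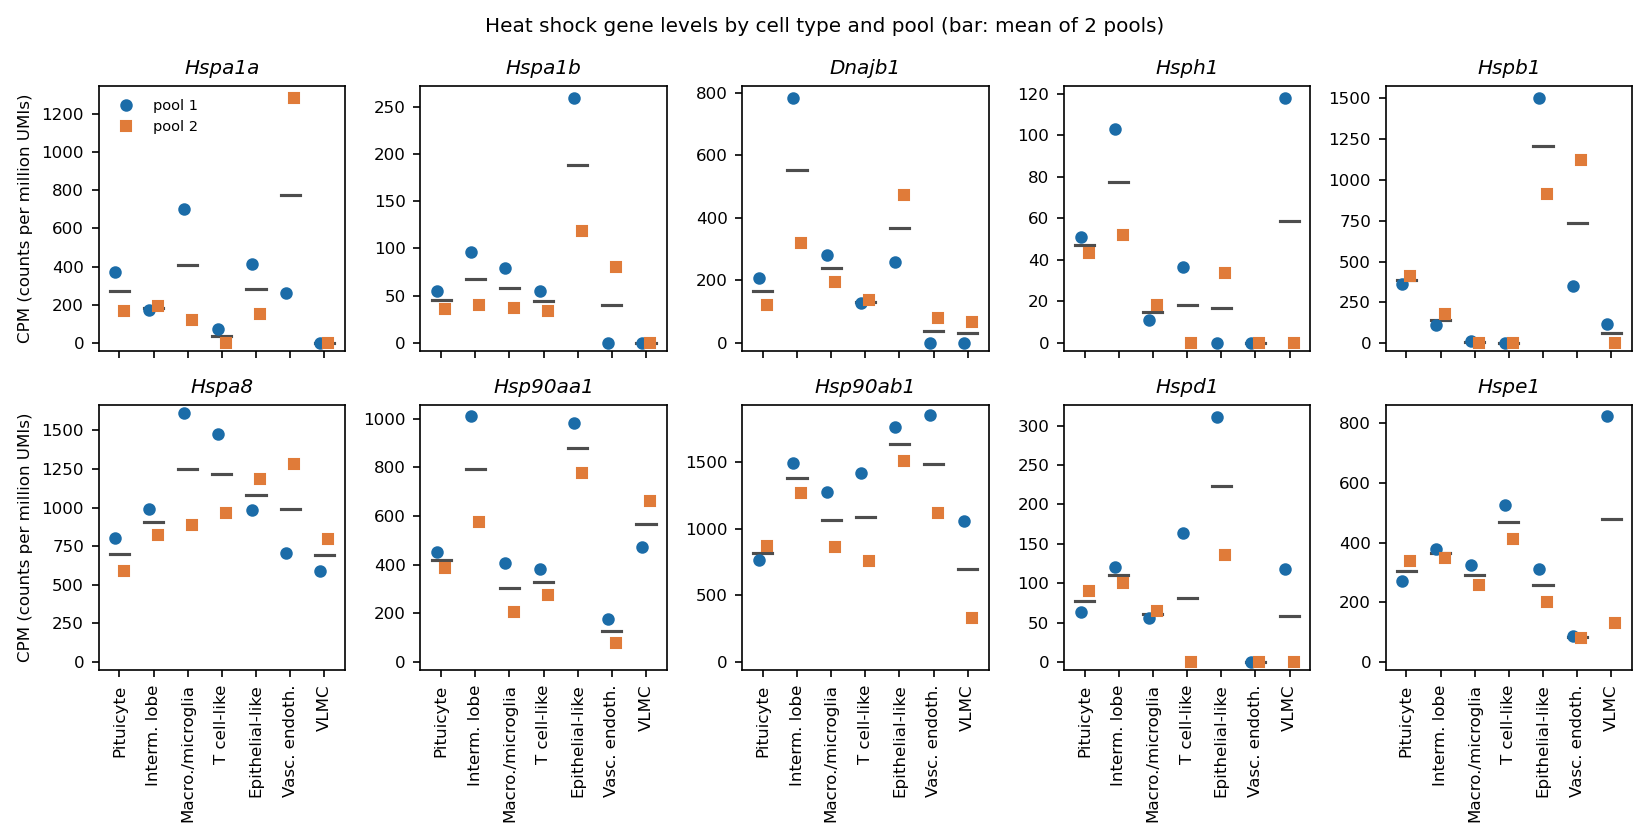
CPM of the 10 heat shock genes by cell type, with circles for pool 1, squares for pool 2 and a bar for their mean; each panel has its own linear axis. *Dnajb1* peaks in the intermediate lobe (782 and 321 CPM) and *Hspb1* lies at or near 0 in macrophages/microglia and T cell-like cells in both pools.

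The constitutive genes were present in every cell type. *Hspa8* (ENSMUSG00000015656, chr9:40800984-40810087, plus strand), the constitutive HSP70, was counted at 1613 and 889.6 CPM in macrophages/microglia and, close behind, at 1475 and 963 CPM in T cell-like cells. It stood at 984 and 1184 CPM in epithelial-like cells, 705 and 1281 CPM in vascular endothelia, and 992 and 822 CPM in the IL. Pituicytes, at 806 and 588 CPM, lay below the IL in both pools, and VLMCs were at 589 and 795 CPM. *Hspa8* was called higher in macrophages/microglia by 0.92 on the log2 scale (SE 0.27, edgeR adjusted p = 0.0047), and in no other type. That call rested on 1 cell: of the 143 *Hspa8* UMIs of macrophages/microglia in pool 1, 54 were in a single cell with 8407 UMIs, where the next highest cell held 9. Without this cell the pool 1 level was 1109 CPM and the log2 fold change 0.61, which was not called, and without the whole pool 1 sum it was 0.59, not called either. Without vascular endothelia and VLMCs it was 0.61, again not called. For *Hspa8*, 48.2% of the 58-base stretches of the transcript were shared with other genes, mostly pseudogenes, and 37.5% in its last 500 bases, so that its counts may hold only a part of its reads.

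*Hsp90aa1* (ENSMUSG00000021270, chr12:110690605-110702728, minus strand) encodes the more inducible of the cytosolic HSP90 proteins. It was counted at 984 and 778 CPM in epithelial-like cells and at 1009.7 and 577 CPM in the IL, ahead of VLMCs at 471 and 662 CPM. Pituicytes had 454 and 387 CPM, T cell-like cells 382 and 275 CPM, macrophages/microglia 406 and 204 CPM and vascular endothelia 176 and 80.1 CPM. Both IL pools lay above both pools of pituicytes, macrophages/microglia, T cell-like cells and vascular endothelia. It was higher in the IL by 1.51 on the log2 scale (SE 0.27, edgeR adjusted p = 4.97e-07) and in epithelial-like cells by 1.09 (SE 0.34, edgeR adjusted p = 0.0198), and lower in vascular endothelia, by -2.71 (SE 0.69, edgeR adjusted p = 0.00332). The IL call was kept in 13 of 14 alternative settings and was lost without its pool 1 sum, at 1.06. Without the pool 1 or the pool 2 sum of the type, the values of epithelial-like cells were 1.14 and 1.03 and those of vascular endothelia -3.34 and -2.49, with no call in any of these cases. Without vascular endothelia and VLMCs the value was 0.57 in epithelial-like cells, not called, and 1.03 in the IL, still called.

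*Hsp90ab1* (ENSMUSG00000023944, chr17:45567775-45573271, minus strand), the constitutive HSP90, was plentiful in most types. Its levels were 1760.1 and 1506 CPM in epithelial-like cells, 1851 and 1121 CPM in vascular endothelia, 1493 and 1266 CPM in the IL, 1420.0 and 756 CPM in T cell-like cells, 1274 and 862 CPM in macrophages/microglia, 768 and 872 CPM in pituicytes and 1059.95 and 331 CPM in VLMCs. Each type overlapped with the next in this order. *Hsp90ab1* was higher in the IL by 0.81 (SE 0.26, edgeR adjusted p = 0.0122) and lower in VLMCs, by -1.65 (SE 0.44, edgeR adjusted p = 0.00606). Leaving out the pool 1 sum ended the IL call at 0.70, leaving out vascular endothelia and VLMCs ended it at 0.46, and leaving out the pool 2 sum ended the VLMC call at -1.37.

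*Hspd1* (HSP60, ENSMUSG00000025980, chr1:55077835-55088243, minus strand) and *Hspe1* (HSP10, ENSMUSG00000073676, chr1:55088132-55091307, plus strand) lie head to head and build 1 mitochondrial folding machine. At these positions the stretch printed above lies inside *Hspd1* and before the start of *Hspe1*. *Hspd1* was counted at 311 and 135 CPM in epithelial-like cells, 121 and 100.2 CPM in the IL, 164 and 0 CPM in T cell-like cells, 63.7 and 90.7 CPM in pituicytes and 56.4 and 64.9 CPM in macrophages/microglia, and no UMI was found in vascular endothelia. *Hspe1* was counted at 528 and 413 CPM in T cell-like cells, 380.4 and 349 CPM in the IL, 272 and 339 CPM in pituicytes, 327 and 259 CPM in macrophages/microglia and 311 and 203 CPM in epithelial-like cells. VLMCs had 824 and 132 CPM, from 7 and 2 UMIs. T cell-like cells lay above the IL in both pools and the IL above pituicytes, and vascular endothelia, at 88.1 and 80.1 CPM from 1 UMI in each pool, lay lowest. Both genes were higher in the IL, *Hspd1* by 1.70 (SE 0.61, edgeR adjusted p = 0.0257) and *Hspe1* by 0.89 (SE 0.31, edgeR adjusted p = 0.0201). On the means of the pools, the epithelial-like cells were highest in *Hspd1* and, of the types above vascular endothelia, lowest in *Hspe1*. This rests on 6 and 8 UMIs of *Hspd1* and 6 and 12 of *Hspe1*, and neither gene was called in these cells. Their *Hspe1* pools overlapped with those of macrophages/microglia. *Hspe1* was also higher in T cell-like cells by 1.22 (SE 0.38, edgeR adjusted p = 0.0132) and lower in vascular endothelia, by -2.69 (SE 0.82, edgeR adjusted p = 0.0267). Without the pool 1 sum, *Hspd1* in the IL was at 1.52, *Hspe1* in the IL at 0.84 and *Hspe1* in T cell-like cells at 0.88, none of them called. Without vascular endothelia and VLMCs, *Hspd1* in the IL was at 0.33, *Hspe1* in the IL at 0.36 and *Hspe1* in T cell-like cells at 0.70, and none was called. The *Hspe1* calls in the IL (1.05) and in vascular endothelia (-2.74 without pool 1, -2.87 without pool 2) were lost without either pool.

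Summed over the 10 members, the level was highest in epithelial-like cells, at 6782 CPM in pool 1 and 5499 CPM in pool 2, followed by the IL at 5262 and 3895 CPM. Vascular endothelia were at 3437 and 5125 CPM, macrophages/microglia at 4759 and 2650.4 CPM, T cell-like cells at 4260.1 and 2578 CPM, pituicytes at 3416 and 3057 CPM and VLMCs at 3298 and 1987 CPM. In all types but the vascular endothelia the sum was higher in pool 1. Each pool is 1 sample, so this difference has no test. In macrophages/microglia 8 of the 10 members were higher in pool 1, where 49.3% of all genes tested were, with a median log2 ratio of 0.38 against 0.00 over all genes tested (100 CPM added to each level), and the gap was widest for *Hspa1a*, at 699 against 120.5 CPM. In T cell-like cells 8 were (42.7% of all genes). Some of these counts rest on few UMIs, such as 4 against 0 of *Hspa1a* and 2 against 0 of *Hsph1* in T cell-like cells. In macrophages/microglia *Hspb1* was counted as higher at 1 against 0. Genes with no UMI in either pool were counted as not higher, which lowers the shares over all genes. In the IL 8 members were higher in pool 1 (41.5% of all genes), led by *Dnajb1* at 782 against 321 CPM, where pool 2 held the anterior lobe hormone RNA given above. In pituicytes 6 members were higher in pool 1 (40.5%), led by *Hspa1a* at 373 against 169.6 CPM. *Hspb1* went the other way in both, with 110.2 against 176 CPM in the IL and 365 against 410.3 CPM in pituicytes. In pituicytes 23 of its 104 UMIs of pool 2 were in 1 cell, and the order of the pools there rests on that cell. *Hsp90ab1*, *Hspe1* and *Hspd1* were also higher in pool 2 of the pituicytes, and *Hspa1a* in pool 2 of the IL.

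Immediate early genes, such as *Fos* and *Jun*, are switched on within minutes of a stimulus, cell dissociation included, and were set beside the heat shock genes as a list of 23. Their summed level in macrophages/microglia was 10725 CPM in pool 1 and 18506 CPM in pool 2, with 1 of 23 genes higher in pool 1, so that the 2 groups of genes differed in opposite directions between the pools. In the IL the immediate early sum was 12291 and 11862 CPM and in pituicytes 3908 and 2943 CPM. Between types, 16 of the 23 genes were called higher in macrophages/microglia (19.5% of all genes), 14 in the IL (21.5%), 13 in epithelial-like cells (8.4%), 10 in vascular endothelia (3.66%), 1 in pituicytes (19.6%) and none in T cell-like cells (11.3%) or VLMCs (2.88%). Called lower were 3 in the IL (2.79% of all genes), 5 in pituicytes (1.49%), 5 in T cell-like cells (2.88%) and 8 in VLMCs (2.2%). The 2 types with no immediate early gene called higher also had the lowest sums of the 5 inducible members, at 291 and 172 CPM in T cell-like cells and 236 and 66.2 CPM in VLMCs, against 1052 and 781 CPM in pituicytes. The 2 groups of genes did not run in parallel throughout. The immediate early sums of pituicytes overlapped with those of T cell-like cells, at 3059 and 4091 CPM. *Hspb1* made up 365 and 410.3 CPM of the inducible sums of pituicytes. Macrophages/microglia of pool 2 held 371 CPM of inducible members beside 18506 CPM of immediate early genes. The part of immediate early induction in the heat shock levels was not tested.

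**Figure D3:**
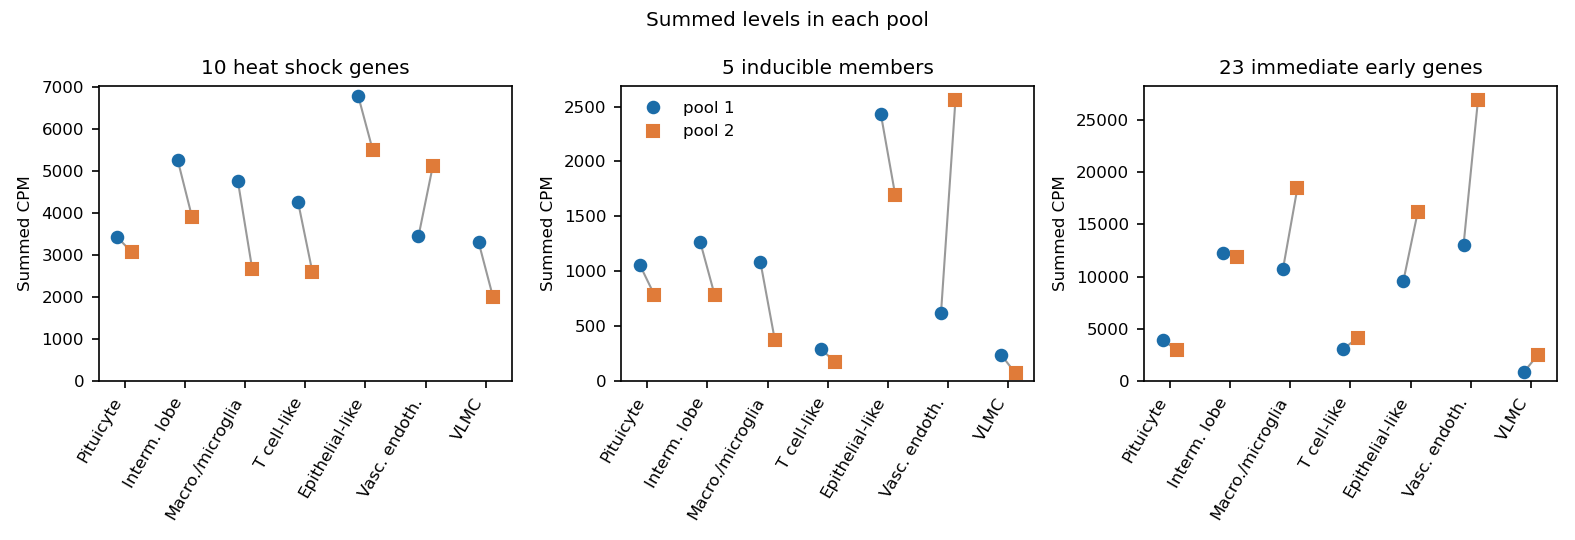
Summed CPM of the 10 heat shock genes, of the 5 inducible members and of 23 immediate early genes in each cell type, with circles for pool 1, squares for pool 2 and a line joining the pools of a type; the axes are linear and start at 0. In macrophages/microglia the heat shock sum is higher in pool 1 (4759 against 2650.4 CPM) and the immediate early sum in pool 2 (18506 against 10725 CPM).

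Within the types, the authors' clusters also differed. They were built from genes that may include members, so that these values are given as a description with exact Poisson intervals, which cover counting error only. In the second IL cluster, 5 members were higher than in the first in both pools. *Hsp90ab1* was lower in both, at 1402 against 1587 CPM and 1248 against 1279 CPM, and *Hspa8* and *Hspe1* were higher in pool 1 and lower in pool 2. The share of all genes higher in the second cluster in both pools was not worked out. The count of 5 therefore has no background to be read against. *Dnajb1* was at 1108 CPM (942 to 1295) against 447 CPM (343 to 573) in pool 1 and at 423 CPM (306 to 569) against 250.3 CPM (176 to 345) in pool 2. *Hsp90aa1* was at 1262 CPM (1084 to 1461) against 750.1 CPM (613 to 909) and at 659 CPM (510.4 to 836) against 521 CPM (411 to 651). The intervals of both genes were apart in pool 1 and overlapped in pool 2. The other 3 rest on 2 to 22 UMIs a value, and their intervals overlapped in both pools: *Hspa1b* was at 140.2 against 50.5 CPM and at 78.6 against 13.5 CPM, *Hsph1* at 140.2 against 64.9 CPM and at 68.8 against 40.6 CPM, and *Hspd1* at 154 against 86.5 CPM and at 147 against 67.7 CPM. *Hspa1a* did not follow, with 252 against 93.8 CPM in pool 1 and 108 against 250.3 CPM in pool 2, and *Hspb1* was lower in the second cluster in pool 1 only. The median mitochondrial share of the second IL cluster was 13.4% and 14.1%, against 9.16% and 8.63% in the first, and its part in the difference was not tested. Among macrophages/microglia, the first cluster held more *Hspa1a* than the second, at 1062 CPM (793 to 1393) against 252 CPM (121 to 463) in pool 1. In pool 2 its 143 CPM (73.8 to 249.6) stood against 41.8 CPM (1.06 to 233), from 1 UMI. *Dnajb1* was at 449 CPM (282 to 681) against 75.5 CPM (15.6 to 221), from 3 UMIs, in pool 1, and at 226 CPM (136 to 353) against 83.6 CPM (10.1 to 302), from 2 UMIs, in pool 2, so that for both genes the intervals were apart in pool 1 and overlapped in pool 2.

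**Figure D4:**
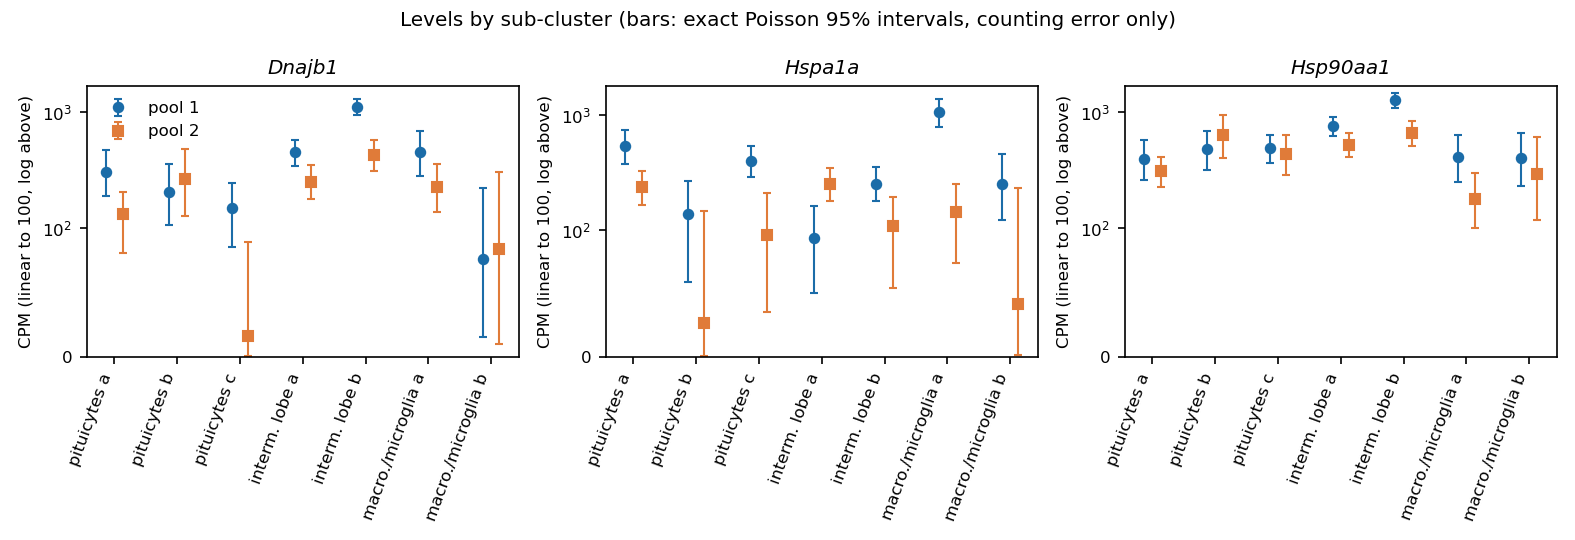
CPM of *Dnajb1*, *Hspa1a* and *Hsp90aa1* in the sub-clusters of pituicytes, intermediate lobe cells and macrophages/microglia, with circles for pool 1, squares for pool 2 and exact Poisson 95% intervals for counting error as bars; the axis is linear up to 100 CPM and logarithmic above. *Dnajb1* and *Hsp90aa1* are higher in intermediate lobe b than in a in both pools, and *Hspa1a* reaches 1062 CPM in macrophages/microglia a of pool 1.

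The UMIs of some inducible members came from few cells of a type. In pituicytes, 18.4% of the cells of both pools held a UMI of *Hspa1a* (13.2% to 24.5%, exact binomial interval), and the 10% of cells with most of it held 79.4% of its 131 UMIs. The same share was 78.8% of 80 UMIs for *Dnajb1* and 62.6% of 190.0 UMIs for *Hspb1*. It was 42.9% of 205 UMIs for *Hsp90aa1* and 41.6% of 339 UMIs for *Hspa8*, which were found in 50.5% and 63.8% of the pituicytes. Scarcer genes are found in fewer cells by sampling alone, which applies to *Dnajb1* and *Hspa1a* more than to *Hspb1*, whose count was close to that of *Hsp90aa1*. In the IL, the top 10% of cells held 56.0% of the *Dnajb1* UMIs and 79.4% of those of *Hspa1a*. Not all were confined to few cells: *Dnajb1* was found in 52.0% of the IL cells and *Hspb1* in 78.3% of the epithelial-like cells. Single cells carried much of some sums: 23 of the 29 *Hspb1* UMIs of the second pituicyte cluster in pool 2 were in 1 cell, as were 22 of the 29 of the epithelial-like cells in pool 1, 33 of the 78 *Hsp90ab1* UMIs of the T cell-like cells in pool 1, and all 8 *Hspa1a* and all 5 *Hspa1b* UMIs that the epithelial-like cells held in pool 1. In vascular endothelia of pool 2, the 16 *Hspa1a* UMIs came from 4 of 7 cells.

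Within a type and a pool, cells that held one HSP70 gene tended to hold the other. The Spearman correlation of *Hspa1a* and *Hspa1b* per cell was 0.56 in 108 pituicytes of pool 1 and 0.58 in 88 of pool 2, and 0.32 and 0.43 in 80 and 68 IL cells. In macrophages/microglia it was 0.49 over 41 cells and 0.07 over 54. That of *Hspa1a* and *Dnajb1* was 0.33 and 0.24 in pituicytes, 0.33 and 0.34 in the IL, and 0.18 and 0.01 in macrophages/microglia. The mitochondrial pair *Hspe1* and *Hspd1* lay between -0.08 and 0.40 in these 6 sets of cells. The summed inducible members and the immediate early genes correlated at 0.50 and 0.43 in pituicytes, 0.59 and 0.58 in the IL and 0.37 in both pools of macrophages/microglia. The inducible sum and the mitochondrial share of a cell lay between -0.28 and 0.04 in these sets. The cells of a set share a library and differ in depth, and the inducible sum itself correlated with the UMIs of a cell at 0.14 to 0.46, so these values are descriptions.

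Of 81 other genes of the chaperone system, listed by family, 49 were tested. In the IL 10 of them were called higher and none lower, a share near the 21.5% of all genes. In pituicytes 8 were higher (19.6% of all genes), in macrophages/microglia 4 (19.5%), in epithelial-like cells 3 (8.4%), in T cell-like cells 3 (11.3%), in vascular endothelia none (3.66%) and in VLMCs 1 (2.88%), with 3 lower (2.2%). As groups, these genes thus passed the test about as often as other genes or less often in the 3 deepest types. The genes named next are the single calls with the lowest p. Each is given for the type where its adjusted p was lowest, and some were called in other types too. In the IL, *Hspa4l*, an HSP110-like protein, was higher by 4.19 on the log2 scale (SE 0.70, edgeR adjusted p = 4.36e-08), and *Stub1*, a ubiquitin ligase that works with HSP70, by 1.96 (edgeR adjusted p = 0.00156). Of the other HSP40 genes, 2 of 12 tested were higher in the IL, *Dnajb2* by 2.07 (edgeR adjusted p = 0.00871) and *Dnaja1* by 1.002 (edgeR adjusted p = 0.00913), and *Dnajb4* was higher in epithelial-like cells by 2.80 (edgeR adjusted p = 0.0492). Of the small heat shock genes, *Hspb8* was higher in pituicytes by 4.80 (SE 0.84, edgeR adjusted p = 2.01e-07). *Hspb1* was called higher there too, as it was in epithelial-like cells, vascular endothelia and the IL. In epithelial-like cells 1 gene of the small heat shock list was called higher as well. *Cryab* was higher in VLMCs by 6.02 (SE 0.66, edgeR adjusted p = 3.59e-17), where the oligodendrocyte markers given above lie; *Cryab* is also strongly expressed by oligodendrocytes. Of the HSP90 cochaperones, 1 of 7 was called, *Ahsa1*, which activates the HSP90 ATPase, in pituicytes by 1.82 (SE 0.36, edgeR adjusted p = 5.9e-06). Of the ring chaperonin of the cytosol, *Cct7* was higher in the IL by 2.05 (edgeR adjusted p = 0.00269), *Cct4* in T cell-like cells by 2.48 (edgeR adjusted p = 0.00908) and *Tcp1* in pituicytes by 2.36 (edgeR adjusted p = 0.0157). The prefoldin genes *Pfdn6* and *Vbp1*, which deliver actin and tubulin to it, were higher in the IL by 1.89 (edgeR adjusted p = 0.0163) and 1.62 (edgeR adjusted p = 0.0396).

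Among the partners in the mitochondrion, *Hspa9*, the HSP70 of the matrix, was higher in pituicytes by 1.30 (SE 0.41, edgeR adjusted p = 0.0104), and the protease *Clpp* in pituicytes by 2.78 (SE 0.74, edgeR adjusted p = 0.0015). *Clpp* was called higher in the IL as well. A list of 5 held the heat shock factors *Hsf1*, *Hsf2*, *Hsf4* and *Hsf5* and the regulator *Hsbp1*. Only *Hsbp1* passed the filter on low counts, so the factors themselves were not tested. *Hsbp1* was higher in pituicytes by 0.78 (edgeR adjusted p = 0.0432), near the median of all genes there.

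The genes whose levels followed the summed inducible members most closely over the 14 sums were *Tceal3* (Pearson's r of log2(CPM + 100) 0.86), *Mllt4* and *Dcaf8* (both 0.82), *Dnajb4* (0.82) and *Ogfrl1* (0.81), picked as the highest of all genes tested other than members. For the sum of *Hspa8*, *Hsp90aa1* and *Hsp90ab1* they were *Gcn1l1* (0.74), *Rnf187* (0.72), *Ddx42* (0.71), *Msx1* (0.71) and *Nfs1* (0.70). The 14 sums pair 7 types with 2 libraries and differ in depth, and none of these values carries a test.

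Free RNA from broken cells adds UMIs to every droplet. From *Pomc* in immune cells it was put at 6.1% of the UMIs of pool 1 and 5.19% of those of pool 2, where the profile of pool 1 was used for both, and the members' expected share of it lay between 0.38 CPM for *Hspa1b* and 30.1 CPM for *Hsp90ab1*. With it subtracted, 18 pairs were called higher and 4 lower, and over all genes 3850 and 463 of 31521 tests. The cells left out only for a mitochondrial share of 25% or more were 56 in pool 1 and 27 in pool 2. Over the UMIs outside the mitochondrial genome, the 5 inducible members held 744 CPM (550.3 to 983) in these against 1242 in the kept cells of pool 1, and 934 (629.9 to 1333) against 872 in pool 2. The inducible sum was thus lower in the left-out cells of pool 1 and did not differ beyond counting error in pool 2. In pool 1 *Dnajb1*, highest in the IL, was at 152 against 492 CPM, and *Hspa1b* at 152 against 88.5 CPM. The left-out cells were not assigned to types and were set against kept cells of all types. The median mitochondrial share of kept cells in pool 1 was 17.2% in pituicytes and 10.4% in the IL. The part of the cell mix in the difference was not tested.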

How the data were processed

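For both pools the authors deposited raw UMI counts per gene and barcode, made with Cell Ranger 2.0.0 and the prebuilt mm10 reference, with 1500 barcodes forced as cells. The matrix of pool 2 held these 1500, and that of pool 1 all 737280 barcodes, of which 170936 had a UMI and the 1500 with most UMIs were used. No normalization had been applied to them. The authors also deposited a table of cluster means with Seurat 2.3, in which the signal is the mean of UMI counts scaled to 10000 per cell, pooled over both pools. How reads that match several genes were counted is not given in the sources used here. Cells were kept if they had over 1000 and up to 10000 UMIs, if 400 to 5000 genes were found and if under 25% of the UMIs were mitochondrial. Each cell was assigned to 1 of the 11 clusters by non-negative weights on the deposited means, with a lowest top weight of 0.978 and a highest second weight of 0.00315. The means of the assigned cells then differed from the deposited ones by at most 0.0157 UMIs per 10000 for any member, and by over 0.05 for 349 of 15025 genes, at most 1.46. Doublets were not removed.

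Counts were summed per pool and type and tested with edgeR 4.0.16 in R 4.3.3, with TMMwsp normalization and a filter on low counts (filterByExpr, minimum 5, total 15). All types shared 1 fit with 7 residual degrees of freedom and a common dispersion of 0.0381. Normalization factors ran from 0.703 to 1.81. All types of 1 pool share its mice and library, so the sums are paired by pool. Over 21 pairs of types the correlation of pool differences across genes had a median of 0.0256. On simulated counts over 4510 genes, 4-fold changes were recovered in 96% of cases in the IL, 98% in pituicytes and 85% in macrophages/microglia. They were recovered in 62% in epithelial-like, 59% in T cell-like, 11% in vascular endothelial and 9% in VLMC sums. Of 2-fold changes, 45% were recovered in the IL, 51% in pituicytes and 32% in macrophages/microglia. The shares were 17% in T cell-like, 9% in epithelial-like, 1% in vascular endothelial and 0% in VLMC sums. A missing call for a difference of about 2-fold therefore says little. Of the simulated calls, 19% were false in pituicytes, 13% in the IL and 7.87% in macrophages/microglia. False calls were 14.3% in vascular endothelia, 10% in VLMCs, 3.8% in T cell-like and 0% in epithelial-like cells. Each type was simulated once, with 200 genes raised in that type and otherwise the same profile in all types and 1 dispersion, unlike the data. In vascular endothelia and VLMCs the share rests on 14 and 10 calls, too few to show an excess. In pituicytes, the IL and macrophages/microglia it lay above the 0.05 that the adjusted p aims at. Calls near that limit, such as *Hspb1* and *Hspd1* in the IL and *Hsbp1* in pituicytes, are therefore less certain. Alternatives used TMM, library sizes alone, DESeq2 1.42.0, other filters, fewer cells or types, and clusters rebuilt with Seurat 5.3.0. Intervals are exact, at 95%. A count of 0 was given a limit of 3 counts.

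All members are named. Of each other chaperone list, up to 3 called genes with the lowest adjusted p are named. The named genes of 1 list are not reported here. Members and lists were chosen with earlier results of these data known. Gene positions are from GENCODE for GRCm38, the same build as mm10, and promoters from RefSeq.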

Additional observations from a re-analysis of the deposited data

Results flagged for a closer look

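In the 157608 barcodes of pool 1 with 1 to 50 UMIs, which were not used as cells, *Hspa1a* stood at 67.1 CPM, *Hspa8* at 399.5 CPM and *Hsp90ab1* at 493 CPM, each above the 1.59 CPM that a count of 0 would allow, so that mRNA of inducible and constitutive members was present outside the droplets taken as cells.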

How the results depend on the processing

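No call of a member changed direction in any setting. Of the 23 called pairs of a member and a type, 3 were kept in every setting that could be run for them: *Hspb1* in epithelial-like cells, *Hspb1* in pituicytes and *Dnajb1* in the IL. With the rebuilt types the epithelial-like group also held cells of other types, at 42 cells against 23. Against 18 higher and 5 lower calls of members, there were 11 and 1 with library sizes alone, 9 and 4 with DESeq2, 11 and 2 with a mitochondrial limit of 10%, 7 and 4 without vascular endothelia and VLMCs, 8 and 5 with types rebuilt without chaperone and immediate early genes, and 6 and 3 with the 4 largest types only, a setting chosen after seeing the data. With the sum of the type tested left out in 1 pool, there were 7 to 11 higher and 0 to 1 lower calls, where the lone sum is assumed to vary like the others. The fit with the replicate block, which pairs the sums by pool, gave 19 and 5 and ended none of the 23 calls. It gave 3745 and 495 of 31570 tests over all genes. Without the macrophage/microglia cell with most *Hspa8*, also chosen after seeing the data, there were 17 and 5, and 3900 and 514 of 31353 tests over all genes. Over all genes, 3917 higher and 515 lower calls of 31570 tests became 3034 and 695 with library sizes alone and 2228 and 489 with DESeq2. With the mitochondrial limit of 10% they were 1700 and 224 of 16527 tests. Higher calls over all genes thus fell in these settings too. Without the pool 1 or the pool 2 sum they were 2982 and 169 of 43333 and 2719 and 250 of 43693. Without vascular endothelia and VLMCs they were 3862 and 1139 of 28445. They were 4250 and 1422 of 28645 with rebuilt types, which named 5 of the 7 types, and 4227 and 1432 of 29412 with the 4 largest types. The median log2 fold change of all genes moved with the scaling, in the IL from 0.55 to 0.18 with library sizes alone and in macrophages/microglia from 0.41 to -0.06. Depth limits the sums of vascular endothelia and VLMCs most, at 8491 to 15098 UMIs.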
